A study of Homo sapiens with 2 samples.

Results

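Transcripts assembled on the strand opposite to an annotated gene were described in NCI-H2030, an established human lung adenocarcinoma cell line. A row of the deposited tables was taken when it was a locus assembled from the reads, carried a strand, reached 0.5 TPM, the tables' length-normalised level, lay off the X and Y chromosomes, overlapped an annotated gene on the opposite strand by at least 1 base and overlapped none on its own strand. The rows of both libraries that overlapped on 1 strand were merged. The members were thus chosen by measured values, their TPM and their presence in a library, which are given here as a description. This gave 875 antisense loci of 22350 merged stranded loci in all, from 524 rows in the SC library and 550 rows in the AS library. Each locus is called by the symbol of its sense gene, the opposite-strand gene with the largest overlap. Coordinates of loci are those of the tables, which fit the human build GRCh37. Only 0.628% of 52256 annotated genes started where GENCODE release 29 places them on GRCh38.

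The study sequenced 1 library of cells treated with SC and 1 of cells treated with miR-494-3p AS. The labels spell out neither abbreviation, and AS is used here only as the name of that library, never for antisense. Both libraries were made from total RNA with a strand-preserving protocol, and no other allele, agent, dose or time is given in the labels. With 1 library in each group no test was possible, and every difference below is one between these 2 libraries with no replicate check.

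Antisense transcripts arise from promoters that fire in both directions, from starts of their own inside a gene, or from a neighbouring gene whose transcript runs on past its end. Divergent transcripts that leave a promoter backwards are usually short-lived, whereas spliced antisense RNAs can be stable. Some natural antisense RNAs are known to act on the gene they overlap, through chromatin, splicing or transcript stability, and for most no role is known.

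The clearest divergent pairs, head to head, had a locus that began less than 1000 bases inside a coding gene and ran out across the gene's start. Of these pairs 9 were assembled in both libraries, and 6 of them had a promoter entry. The promoters of the 4 whose gene length agreed within 500 bases between the tables and RefSeq are shown because the antisense locus crosses this stretch of DNA. They run from 250 bases before to 50 bases after the RefSeq start, 5′ to 3′ on the strand of the sense gene, in RefSeq's GRCh38.p14. Capitals mark matches on either strand to any of 4 motifs. These were GGGCGG for the GC box, CCAAT for the box of that name, TATAAA for the TATA box and CCGGAAG for the ETS site.
ABCC4, chr13:95301402-95301701, minus strand: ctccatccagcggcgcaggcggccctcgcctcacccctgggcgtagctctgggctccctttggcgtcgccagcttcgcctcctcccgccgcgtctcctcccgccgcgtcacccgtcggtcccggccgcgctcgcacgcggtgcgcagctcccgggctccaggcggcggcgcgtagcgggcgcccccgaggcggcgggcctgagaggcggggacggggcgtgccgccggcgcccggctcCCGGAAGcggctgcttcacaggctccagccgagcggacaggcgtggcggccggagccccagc
RHOV, chr15:40874185-40874484, minus strand: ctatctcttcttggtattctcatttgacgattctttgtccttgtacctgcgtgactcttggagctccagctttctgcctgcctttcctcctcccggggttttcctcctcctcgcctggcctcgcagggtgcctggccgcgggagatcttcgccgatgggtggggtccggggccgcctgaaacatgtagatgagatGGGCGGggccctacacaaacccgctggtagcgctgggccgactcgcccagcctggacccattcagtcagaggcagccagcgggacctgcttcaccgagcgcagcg
CKAP2L, chr2:112764560-112764859, minus strand: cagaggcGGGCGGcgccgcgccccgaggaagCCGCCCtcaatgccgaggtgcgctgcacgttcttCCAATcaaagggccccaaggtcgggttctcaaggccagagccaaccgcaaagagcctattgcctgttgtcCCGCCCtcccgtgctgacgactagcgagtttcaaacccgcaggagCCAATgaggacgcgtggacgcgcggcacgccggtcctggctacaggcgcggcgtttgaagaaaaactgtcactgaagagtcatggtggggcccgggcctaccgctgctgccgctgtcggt
PLAUR, chr19:43670120-43670419, minus strand: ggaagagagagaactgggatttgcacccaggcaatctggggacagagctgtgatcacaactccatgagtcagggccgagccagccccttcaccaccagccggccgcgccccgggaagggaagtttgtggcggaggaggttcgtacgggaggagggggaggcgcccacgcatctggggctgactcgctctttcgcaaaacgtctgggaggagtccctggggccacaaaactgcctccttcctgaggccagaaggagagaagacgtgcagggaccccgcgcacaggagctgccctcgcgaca

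The share of G and C was 79.7% in ABCC4, beside a median of 62.7% over 15841 promoters of coding genes. The other 3 lay near that median, at 62.3% in RHOV, 64.0% in PLAUR and 65.3% in CKAP2L. The ABCC4 stretch held 47 CG dinucleotides, CKAP2L 31, RHOV 20 and PLAUR 18, where the median coding promoter held 22. None of the 4 held the TATA box letters, which 9.63% of coding promoters hold. The GC box stood in 2 of the 4 (58.5% of coding promoters), the CCAAT box in CKAP2L (36.4%) and the ETS site in ABCC4 (14.2%). A match is a description of the letters, and the RefSeq start may not be the start these cells use.

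The cells carried the keratins of an epithelial carcinoma, with KRT8, KRT18 and KRT7 at 67.9 to 558 TPM in SC and 55.2 to 479 TPM in AS. The epithelial cadherin gene CDH1 was at 0.00741 and 0.0137 TPM, KRT19 was listed at 0 in both libraries, and EPCAM was at 0.604 and 1.84 TPM. Of 4 lung lineage markers only NAPSA reached 1 TPM (1.62 and 1.04 TPM), so the lung origin rests on the label. Leukocyte and endothelial markers all lay below 1 TPM. Of 4 fibroblast markers only COL1A1 reached 1 TPM (26.3 and 15.8 TPM).

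Antisense loci held little of the RNA. The sum over their rows was 1521 TPM (SC) and 1387 TPM (AS), or 0.152% and 0.139% of all assembled TPM. The median row was at 1.15 TPM in SC against 1.29 TPM in AS, and only 21 loci in SC and 19 in AS reached 10 TPM. The limit of 0.5 TPM removed no row, since the lowest antisense row stood at 0.545 TPM in SC against 0.600 TPM in AS. These lowest values are those of a deposited coverage of 1 read per base in each library.

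The read support was thin. The median coverage of an antisense row was 1.87 in SC and 1.89 in AS, beside 4.47 and 5.11 for assembled rows on the strand of a gene. A coverage of at most 3 was found for 400 of the 524 rows in SC (76.3%) and 414 of the 550 rows in AS (75.3%). A coverage of 1, within 0.001, stood behind 103 rows in SC and 101 in AS. The columns did not always tell the same. Coverage stood within 1% of a constant multiple of FPKM in 356 of the 524 rows in SC and 379 of the 550 in AS, and 6 and 7 rows had a coverage of 0 despite their TPM. For the remaining rows the TPM and the coverage give different levels, and which is nearer to the reads was not tested. Read counts are not given, so no counting interval was computed.

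Few loci were found in both libraries. Of the 875, 193 (22.1%) were members in both, 295 had an assembled row in SC only and 326 in AS only. The other 61 had an overlapping row on the same strand in the other library that did not qualify. Of assembled loci on the strand of a gene, 70.7% were found in both libraries, and of those outside annotated genes 23.3%. The share of antisense loci found in both rose with level. It was 17.5% of 200 loci at 0.5 to 1 TPM in SC, 37.0% at 1 to 2 TPM, 60.0% at 2 to 5 TPM and 76.5% of 51 loci at 5 TPM or more. Loci on the strand of a gene stood at 54.9%, 76.6%, 93.4% and 99.7% in the same classes. In AS the antisense shares were 15.2%, 32.4%, 56.1% and 75.5%, and those on the strand of a gene 30.9%, 53.1%, 84.7% and 99.4%. A locus with a row in 1 library is not described here as absent from the other.

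**Figure D1:**
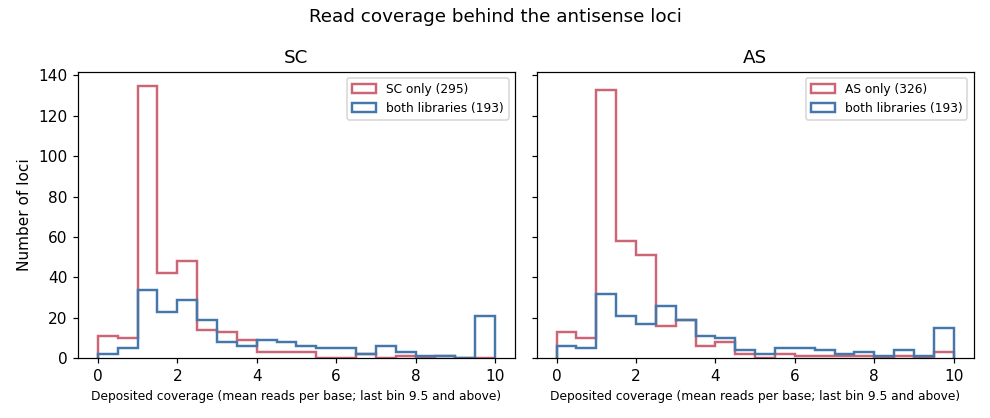
Deposited coverage (x axis, mean reads per base, the highest values gathered in the last bin) and number of loci (y axis) in SC and AS, for loci assembled in that library only and in both. The loci of 1 library pile up just above a coverage of 1, with medians of 1.46 in SC and 1.56 in AS, against 2.54 and 2.81 for the 193 loci found in both.

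The edges of a locus moved between libraries and decided some memberships. Where the rows of a merged locus differ in extent, its levels in SC and AS do not describe the same stretch. In 38 loci the row of the other library joined an annotated gene on its own strand, and in 23 it ended clear of the sense gene. PMEPA1, which encodes a transmembrane protein of the TGF-beta response, had a divergent locus at 16.2 TPM in SC that reached 71 bases into the gene (chromosome 20, 56286522 to 56292834). In AS the same transcript unit stood at 12.2 TPM, from 56286742 to 56293058, outside the gene. The locus at the start of SLC25A39, a mitochondrial carrier, overlapped the gene by 54 bases in AS at 8.22 TPM, whereas the row in SC was at 11.6 TPM and clear of it. The antisense row at RP11-137H2.4 on chromosome 10 had 103 TPM in SC, and its counterpart in AS, at 86.9 TPM, was joined to a same-strand gene.

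Most loci lay wholly inside their sense gene, and for most the sense gene was protein coding. The sense gene was protein coding for 678 loci (77.5%), a long noncoding RNA for 98, a pseudogene for 63 and a small RNA gene for 8, and 28 had an identifier that GENCODE release 29 did not match. Inside the sense gene lay 602 loci (68.8%). Another 114 ran head to head with it across its start, 93 ran tail to tail across its end, and 66 spanned it. No annotation of the tables' build was used here, so exons and introns could not be assigned. The loci were short, with a median of 2497 bases, and were spread over all 22 autosomes, from 10 on chromosome 21 to 91 on chromosome 1.

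Among loci wholly inside a gene, more started near its end. With the gene cut into 5 equal stretches from its start to its end, 102, 97, 102, 113 and 188 of the 602 loci began in each. The 114 head to head loci also began inside a gene but are not counted here. Of these, 65 began within 1000 bases of the gene's start. The classes thus take out early starts, so the counts do not show an excess near the end for all antisense starts. A same-strand gene ended within 5000 bases upstream of 143 loci (16.3%), and within 1000 bases upstream of 38. Whether these loci continue that gene's transcript was not tested.

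**Figure D2:**
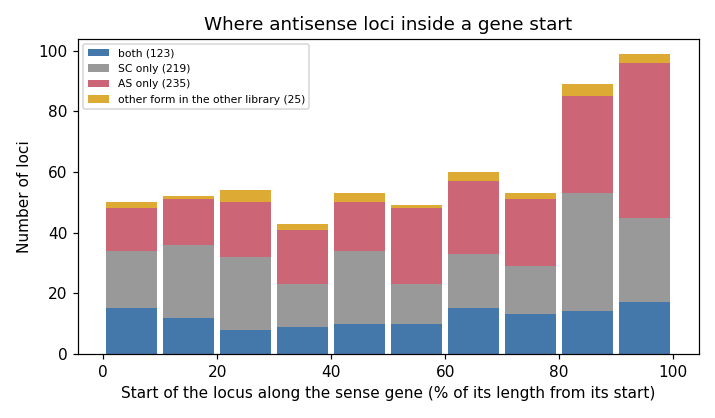
Start of each of the 602 loci inside a gene (x axis, percent of the sense gene's length from its start) and number of loci (y axis), stacked by the libraries in which they were assembled. The 2 bars nearest the gene's end hold 188 loci, and each other pair of bars holds between 97 and 113. Loci that began inside the gene and ran out across its start are classed as head to head and are left out.

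The strongest locus lay inside PXDNL, a peroxidasin-like gene (chromosome 8, 52307745 to 52309361, plus strand). It stood at 149 TPM in SC against 81.5 TPM in AS, while PXDNL itself was at 1.76 and 3.54 TPM. The locus stood above the gene in both libraries, and its deposited coverage, 258 and 130 reads per base, was the deepest of all members.

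ANKRD11, which encodes a chromatin regulator, carried a locus of 83.4 TPM in SC against 40.0 TPM in AS near its end (chromosome 16, 89365538 to 89366720, plus strand). The gene was at 21.4 and 30.6 TPM. The coverage of this locus was only 11.7 and 5.53, which on the TPM scale is 6.40 and 3.32, far below its TPM. A same-strand gene ended 814 bases upstream of it.

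Of the 66 loci that spanned a gene, 20 overlapped several opposite genes and 46 overlapped 1. The locus on chromosome 6 from 3154367 to 3225895, plus strand, stood at 71.5 and 51.7 TPM and overlapped 4 opposite genes. The one with the largest overlap, the long noncoding RNA gene ENSG00000230269, was listed at or near 0, and the most abundant of the 4 was at 72.0 and 51.4 TPM. The locus over the pseudogene AC010642.2 on chromosome 19 stood at 19.0 and 22.5 TPM and also overlapped 4 opposite genes, the most abundant at 77.5 and 90.6 TPM.

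FAM65A had a head to head locus of 24.9 TPM in SC against 10.3 TPM in AS that began 10315 bases inside it (chromosome 16, 67551854 to 67562636, minus strand). The gene itself was nearly level, at 63.3 and 65.3 TPM. The locus inside ZDHHC11, a palmitoyltransferase gene with a close copy beside it, was at 18.7 and 11.8 TPM against 0.787 and 0.584 TPM for the gene. Reads of such copies cannot be told apart with certainty.

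ANXA2 encodes the membrane-binding protein annexin A2. Among the 12 strongest of the loci found in both libraries it was the most abundant sense gene, at 1627 TPM in SC against 1492 TPM in AS. Its antisense locus stood at 12.7 and 15.2 TPM. The loci of CHID1 (11.2 and 13.7 TPM) and YBEY, a gene of RNA processing (13.5 and 11.7 TPM), also lay below their genes in TPM. On the coverage scale the YBEY locus stayed below its gene. That of CHID1 was at 10.2 in SC and 13.6 in AS, against 10.4 and 8.92 for the gene. Tail to tail, the locus of DHRS1, a dehydrogenase gene, was at 16.1 and 10.8 TPM. The locus of RP11-1055B8.7 was at 18.0 and 15.6 TPM and that of the pseudogene RP11-104G3.2 at 16.1 and 9.73 TPM, which completes the 12. Of the 12, 9 were lower in AS by TPM and 3 were higher (AC010642.2, ANXA2 and CHID1). DHRS1 was lower in TPM (log2 ratio -0.53) and higher in coverage (0.30).

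**Figure D3:**
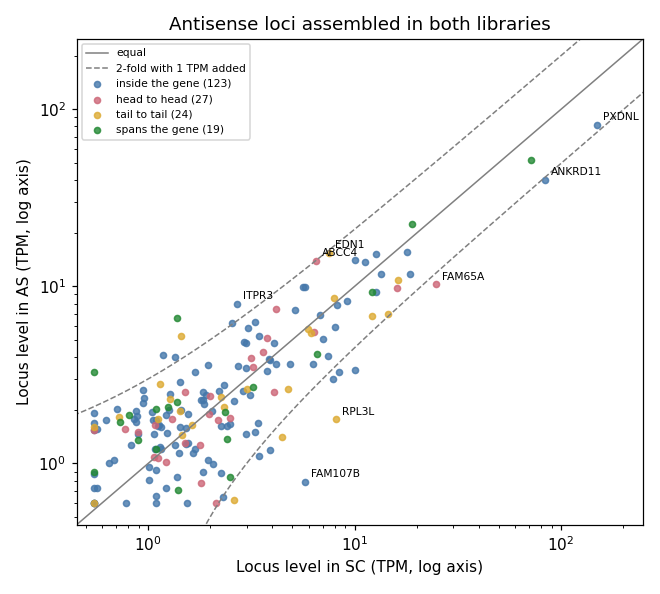
Level of each of the 193 loci found in both libraries in SC (x axis, TPM, log axis) and in AS (y axis, TPM, log axis), coloured by position against the sense gene, with lines of equality and of a 2-fold ratio after adding 1 TPM. All but 19 points lie between the dashed lines, and the loci of PXDNL, at 149 and 81.5 TPM, and ANKRD11, at 83.4 and 40.0 TPM, stand at the top.

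Of the 193 antisense loci found in both libraries, most differed by less than 2-fold after 1 TPM was added. The 295 loci with a row in SC only and the 326 in AS only have no ratio here. Since the level chose the members, the following counts describe them and carry no test. The log2 ratio of AS to SC, after adding 1 TPM to each, was at or above 1 for 7 of the 193 loci (3.63%) and at or below -1 for 12 (6.22%), and 174 lay within 2-fold. Of 13322 annotated genes whose mean over the libraries reached 1 TPM, 16.5% had a ratio of 2-fold or more upward in AS and 2.21% one of 2-fold or more downward. Of 14665 other assembled loci found in both libraries, these shares were 11.8% and 1.36%. With 1 TPM added, the share of antisense loci was thus below this background upward and above it downward. With 0.1 TPM added, 26 loci were 2-fold or more higher and 19 lower. The background was not counted on that scale and was not matched for level. The median log2 ratio was 0.06 for the antisense loci, 0.28 for the annotated genes and 0.25 for the other assembled loci. With 1 TPM added, a locus near 1 TPM can hardly reach 2-fold, and the scale understates the ratios of low loci. Relative to the median of all genes, 3 loci were 2-fold or more higher and 20 lower. Of the 7 higher loci 3 were also 2-fold higher in coverage, and of the 12 lower ones 8 were 2-fold lower in it.

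The smallest log2 ratio was that of FAM107B, a gene of the FAM107 family. Its antisense locus near the end of the gene (chromosome 10, 14575165 to 14576720, plus strand) stood at 5.73 TPM in SC against 0.789 TPM in AS, a log2 ratio of -1.91, and the coverage was 10.5 and 1.31. The sense gene went the other way, from 16.5 TPM in SC to 65.0 TPM in AS, a log2 ratio of 1.92 in TPM and 0.81 in coverage. This was the only one of 106 measured pairs with a locus 2-fold lower and a coding gene 2-fold higher.

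Other lower loci lay against genes that stayed within 2-fold. RPL3L, a muscle form of a ribosomal protein, had a tail to tail locus at 8.14 TPM in SC against 1.78 TPM in AS (log2 ratio -1.72). MXRA8, which encodes a matrix-associated receptor, had a locus inside it at 7.84 and 2.99 TPM (-1.15), with the gene at 5.93 and 5.74 TPM. The loci of PSMF1, a proteasome inhibitor (3.90 and 1.20 TPM), and LGALS3, which encodes galectin-3 (2.62 and 0.624 TPM), both had a log2 ratio of -1.16. The row at LGALS3 ran from 55609621 to 55613284 in SC and from 55596969 to 55613267 in AS.

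The locus of FAM65A had a log2 ratio of -1.20 and that of ANKRD11 one of -1.04. The loci of NPIPB3 (9.99 and 3.38 TPM) and NLRP6 (4.46 and 1.41 TPM) were lower in TPM, with log2 ratios of -1.33 and -1.18, and higher in coverage (0.88 and 0.12), so their direction depends on the column. NLRP6 itself was at 0.0391 and 0.130 TPM. Its locus also overlapped a second opposite gene, which was lower in AS too, at 3.65 TPM in SC against 1.32 TPM in AS. NPIPB3 is one of many near-identical copies. Its antisense row ran from 21415776 to 21416573 in SC and from 21413657 to 21416610 in AS. Of the other 3 lower loci, named after their values were seen, HDAC9, a histone deacetylase gene listed near 0, carried a locus of 8.44 and 3.28 TPM (-1.14). HOXC6, a homeobox gene, had one of 3.46 and 1.11 TPM (-1.08), and FOXP1 one of 2.30 and 0.643 TPM (-1.01).

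The higher loci were led by RP11-469A15.2, with 1.38 TPM in SC against 6.66 TPM in AS, a log2 ratio of 1.69 that was 0.22 in coverage. The locus over AC008281.1 had 0.545 and 3.29 TPM (1.47), but -0.51 in coverage. Neither of these 2 therefore holds in both columns. The locus over AC008281.1 merged rows across 277582 bases, and its coverage in AS was 0.138. In SC another same-strand row of 1.21 TPM, 220602226 to 220656535, also overlapped it. That row was not a member, so the 0.545 TPM leaves it out.

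In ITPR3, which encodes a calcium channel of the endoplasmic reticulum opened by inositol trisphosphate, the locus stood at 2.69 TPM in SC against 7.95 TPM in AS (1.28 in TPM and in coverage), while the gene was at 15.6 and 15.7 TPM. PC, which encodes the mitochondrial pyruvate carboxylase, had a locus of 1.34 and 4.0 TPM (1.09 in both columns) against 42.0 and 46.4 TPM for the gene. A locus tail to tail with a U3 small nucleolar RNA annotation was at 1.45 and 5.26 TPM (1.35). For these 3 loci the coverage gave the same ratio as the TPM.

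The locus inside SH3BP4, a gene of endocytosis, was at 2.55 and 6.22 TPM (1.03, and 0.60 in coverage). The gene was higher too, with 14.8 and 32.7 TPM (1.09, and 0.89 in coverage). It was the only measured coding pair with both members at least 2-fold higher in TPM, and neither reached 2-fold in coverage. WDR20 had a locus of 1.18 and 4.09 TPM (1.22, but 0.11 in coverage). ABCC4, a multidrug exporter whose promoter is printed above, had a divergent locus of 6.53 and 14.0 TPM (0.99; 0.16 in coverage) against only 0.794 and 1.27 TPM for the gene. The locus that ran into the end of EDN1, which encodes endothelin-1, was at 7.51 and 15.5 TPM (0.95), with the gene at 15.1 and 15.9 TPM.

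The ratios of locus and gene were only weakly related. Across the 106 coding pairs with a gene of at least 1 TPM on average, Spearman's rho between the log2 ratios of the locus and of the gene was -0.17 in TPM and -0.12 in coverage, a description over pairs that share the same 2 libraries. In 77 pairs both lay within 2-fold. In 14 pairs the gene alone was at least 2-fold higher and in 3 it alone was lower. In 3 pairs the locus alone was higher and in 7 it alone was lower.

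**Figure D4:**
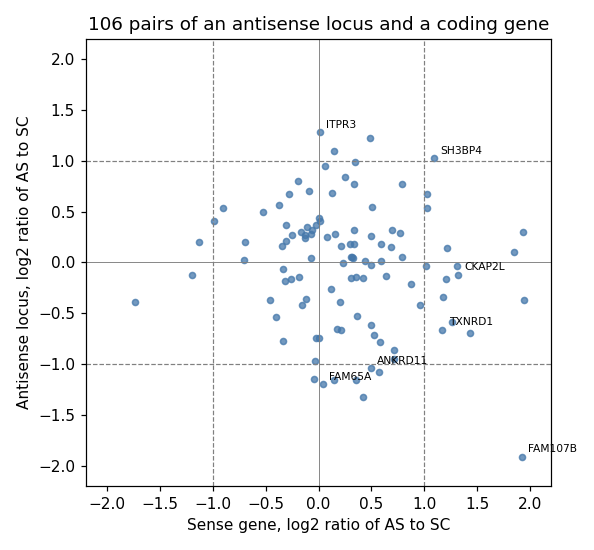
Log2 ratio of AS to SC of the sense gene (x axis) and of its antisense locus (y axis) for 106 pairs with a coding gene, with 1 TPM added and dashed lines at 2-fold. FAM107B lies alone at the lower right (1.92 and -1.91), and SH3BP4 alone at the upper right (1.09 and 1.03).

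The other divergent loci with printed promoters stayed within 2-fold between the libraries. RHOV was at 163 TPM in SC against 154 TPM in AS, with a locus of 4.17 and 7.42 TPM that began 424 bases inside it. CKAP2L, a gene of the mitotic spindle, was higher in AS (3.31 and 9.76 TPM, log2 ratio 1.32), and its locus was level at 1.51 and 1.30 TPM. PLAUR, the urokinase receptor gene, was lower in AS (51.1 and 25.3 TPM, -0.99), while its locus stood at 0.895 and 1.50 TPM.

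Some other head to head genes were chosen after their values were seen, as were RHOV, CKAP2L, PLAUR, EDN1, PMEPA1, SLC25A39 and RP11-137H2.4 above. TXNRD1, the cytosolic thioredoxin reductase gene, was at 93.5 TPM in SC against 212 TPM in AS (1.17), with a locus of 1.81 and 0.776 TPM (-0.66). CAPRIN1, which encodes an RNA-binding protein of stress granules, was at 25.3 and 52.2 TPM (1.02), and its locus at 1.12 and 1.07 TPM. The locus of FBXL2, a ubiquitin ligase subunit gene, exceeded its gene by far, at 6.39 and 5.54 TPM against 0.279 and 0.306 TPM.

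The level of a locus also followed that of its gene only weakly. Across loci with a coding gene of at least 1 TPM, Spearman's rho between the 2 levels was 0.12 in SC (284 loci) and 0.11 in AS (294 loci), again a description of loci within 1 library. Where the gene was below 1 TPM the median locus stood at 1.02 TPM in SC, at 1 to 10 TPM at 1.16, at 10 to 100 TPM at 1.45 and at 100 TPM or more at 1.35. The ratio of locus to gene was lower where the gene was higher, with a median of 0.0518 for genes of 10 to 100 TPM and 0.00609 for genes of 100 TPM or more. Above 100 TPM no locus in SC passed 0.0657 of its gene, and none in AS passed 0.0483. No locus could stand below the lower limit of its library, whatever the level of the gene.

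Counted over genes, antisense loci were less frequent below 1 TPM and about level above it. In SC it was found for 1.54% of 8610 coding genes below 1 TPM, 2.95% of 4273 at 1 to 10 TPM, 3.07% of 4200 at 10 to 100 TPM and 2.72% of 1361 at 100 TPM or more. In AS these shares were 1.58%, 2.77%, 2.96% and 2.75%. Genes above 100 TPM are shorter, with a median of 11451 bases in SC, than those of 1 to 10 TPM, with 41621 bases.

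The locus stood at or above its sense gene in 235 of 520 loci in SC (45.2%) and 247 of 548 in AS (45.1%), counting 57 and 76 genes that were listed at 0. Among coding genes these were 141 of 405 and 131 of 415. No locus stood below 0.545 TPM in SC or 0.600 TPM in AS, so a gene under that limit was always exceeded. The coding sense gene was below 1 TPM for 121 loci in SC and 121 in AS. The choice of members thus fixed part of these counts in advance. Ratios were ranked over the loci found in both libraries with at least 2 TPM in each and a sense gene of at least 1 TPM in each. The highest was that of PXDNL, whose mean TPM was 43.4 times that of the gene, and it was above the gene in both columns and both libraries. It was followed by RP11-104G3.2 (3.23), RP11-1055B8.7 (2.92), ANKRD11 (2.37), NPIPB3 (1.54), KCNIP2, a potassium channel partner gene (1.28), CLMP, an adhesion molecule gene (1.05), and RP11-169F17.1 (0.94). The value for CLMP includes a row of AS that did not overlap CLMP.

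Some of these ratios held in TPM only. On the coverage scale the locus of RP11-1055B8.7 was at 1.24 and 1.03 against 4.30 and 5.79 for its gene. That of NPIPB3 was at 1.38 and 3.38 against 3.58 and 5.11. That of CLMP in SC was at 3.37 against 7.34, although its TPM was 1.94 times that of the gene. The row of this locus in AS, 122933365 to 122933939, lay outside CLMP (122943035 to 123065989). The merged locus also overlapped a second opposite gene, listed at 770 TPM (SC) and 761 TPM (AS). No ratio to CLMP is therefore read from AS. In AS the locus of NPIPB3 was below its gene also in TPM, at 0.66 times the gene. The locus of RP11-169F17.1 was at 0.66 times its gene in SC and 1.21 times in AS by TPM. On the coverage scale it stood above its gene in both libraries, at 2.83 and 4.77 against 1.12 and 1.44. The choice of column thus moved these ratios in either direction.

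**Figure D5:**
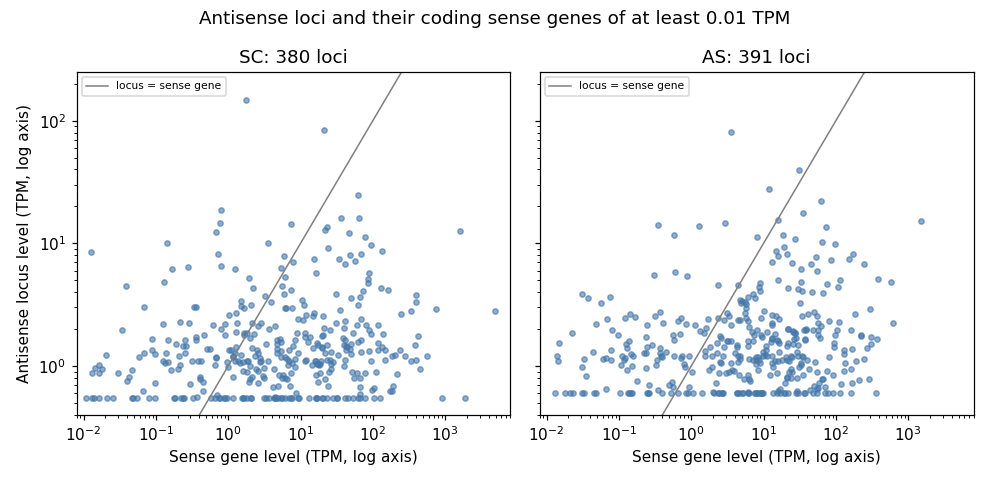
Level of the sense gene (x axis, TPM, log axis) and of its antisense locus (y axis, TPM, log axis) in SC and AS, for coding sense genes of at least 0.01 TPM, with the line of equal level. No point lies below 0.545 TPM in SC or 0.600 TPM in AS at any level of the gene, and the PXDNL locus is the highest point in both panels.

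Loci of 1 library were low, with a few exceptions. The median was 0.948 TPM for those of SC only and 1.12 TPM for those of AS only. The strongest in SC only belonged to ANKDD1A (14.8 TPM), ACOT2, an acyl-CoA thioesterase gene with close copies (9.62 TPM), MLPH, which encodes melanophilin (7.17 TPM), and DPF3 (6.12 TPM). The strongest in AS only belonged to NPIPA8, of a family of near-identical copies (27.9 TPM), KLHDC4 (21.9 TPM), WDR1, a gene of actin disassembly (17.8 TPM), and FBXO41 (14.8 TPM).

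Coverage separated these. WDR1 had 29.7 reads per base in AS (chromosome 4, 10084650 to 10086156, plus strand), the deepest of the loci of 1 library, whereas KLHDC4 had 1.04 and FBXO41 0.168. WDR1 itself was level, at 40.5 TPM in SC against 35.5 TPM in AS.

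The coding genes under loci of 1 library had medians near that of all annotated genes, 0.28. Of 171 whose mean reached 1 TPM and whose locus was in SC only, 17.0% were 2-fold or more higher in AS and 6 were lower, with a median log2 ratio of 0.29. Of 173 with a locus in AS only, 10.4% were higher and 2 were lower, with a median of 0.23. The share over all annotated genes was 16.5%, so the former share lay close to it and the latter below it.

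Several genes carried more than 1 locus. There were 44 of them, and 5 had 3 loci, namely CHMP1A, CMIP, FHAD1, FN1 and PARP16. FN1, which encodes fibronectin, was at 3.49 TPM in SC against 13.2 TPM in AS (1.66). Its 3 antisense loci were members in AS only, at 1.69 TPM (chromosome 2, 216233293 to 216234641), 2.24 TPM (216236809 to 216241942) and 2.59 TPM (216223791 to 216227537). In SC 2 of them had no row, and the last, which runs into the gene's end, had one of 1.81 TPM clear of the gene. Its coverage in AS was 0.357, against 3.73 and 2.82 for the others. For FHAD1, also named after its values were seen, all 3 loci were in SC only, at 0.545 to 1.02 TPM, over a gene below 0.1 TPM.

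Of 223 genes on 8 pathway lists 7 carried an antisense locus in either library (3.14%), beside 3.70% of 18446 coding genes. Of 32 genes of SET and protein phosphatase 2A (PP2A), the phosphatase that SET inhibits, 3 had one (9.38%). ENSA, whose protein inhibits PP2A in mitosis, was at 247 and 171 TPM, with a tail to tail locus of 2.66 TPM in SC only. The regulatory subunit gene PPP2R2C was at 33.5 and 26.8 TPM, with a locus of 1.22 and 1.87 TPM. The row of this locus ran from 6480429 to 6491125 in SC and from 6473850 to 6480464 in AS. Its levels thus describe nearly separate stretches. PPP2R3A was at 0.296 and 0.538 TPM, with a locus of 0.737 TPM in AS only. SET itself had none, nor did any of 23 described targets of miR-494-3p, 30 G1/S genes, 29 G2/M genes and 26 cholesterol genes.

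Of 32 hypoxia and glycolysis genes only PFKP, the platelet phosphofructokinase gene, carried a locus (2.93 TPM in SC against 4.83 TPM in AS, beside 740 and 570 TPM for the gene). Of 22 genes of the YAP pathway and its targets only TEAD4, a DNA-binding partner of YAP, did, at 3.15 and 3.94 TPM, head to head with a gene at 61.9 and 65.5 TPM. Of 30 epithelial and mesenchymal genes FN1 and TJP1, a tight junction scaffold gene, had loci, that of TJP1 at 0.545 TPM in SC only.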

How the data were processed

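The 2 tables, 1 per library, list known genes beside loci that the assembly added. The authors deposited coverage (mean reads per base), FPKM and TPM for every row, per the file headers. The software that aligned and assembled the reads is unnamed in the labels. The submitters' processing notes name GRCh38, whereas the gene positions in the tables fit GRCh37. Annotated and assembled rows are listed together, so the TPM column sums to more than its nominal total.

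Antisense rows were found by overlap of at least 1 base with Python 3.11.15, pandas 2.3.3 and numpy 2.4.6, tested on simulated loci. Gene classes came from GENCODE release 29 by identifier. Ratios are log2 of (TPM + 1) in AS over SC, and genes were measured from a mean of 1 TPM. With 1 library per group no test was run. Read counts and total depth are unknown, so precision is given only by coverage. Named loci were the 12 of highest mean TPM among loci found in both libraries. The 8 highest against the sense gene came from loci of at least 2 TPM and genes of at least 1 TPM in both libraries. Also named were the 8 largest and 8 smallest ratios among loci reaching 2 TPM. The 4 highest of each library alone and all loci antisense to listed genes were added. The members and lists were chosen with earlier results of these data known. Other TPM minimums, overlaps, pseudocounts and scales were tried.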

Additional observations from a re-analysis of the deposited data

How the results depend on the processing

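The number of antisense loci fell from 875 to 550 at a TPM minimum of 1. It was 677 where at least 0.5 of the locus had to overlap the gene and 591 where the sense gene had to reach 0.5 TPM. It was 639 without loci that had a same-strand gene within 5000 bases on either side. The counts of 7 loci at least 2-fold higher and 12 lower became 26 and 19 with a pseudocount of 0.1, and 15 and 14 with 0.5. They became 3 and 7 in FPKM, 3 and 20 after centring on the median of all genes, and 189 and 151 with a missing row set to 0. In coverage they were 7 and 13. The median log2 ratio of the loci, 0.06, became -0.22 after centring and 0.20 with missing rows at 0, and that of their sense genes went from 0.01 to -0.27 after centring. The 0.01 includes genes listed at 0, and the 104 coding sense genes whose mean reached 1 TPM had a median of 0.24. In coverage NLRP6 (0.12), NPIPB3 (0.88) and AC008281.1 (-0.51) changed direction. Of 16 named loci with a 2-fold ratio, 9 kept it in FPKM, 9 in coverage and 12 after centring. Alternatives added after seeing the data left 140 loci in both libraries at a TPM minimum of 1 and 144 without a same-strand gene within 5000 bases. Why the values moved was not tested. No paired analysis was possible because each group has 1 library, and none could be left out.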
